A study of Mus musculus with 2 samples.

Results

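Mir335 is the mouse gene of the microRNA (miRNA) miR-335, a small regulatory RNA encoded within the imprinted gene Mest. It was found by its gene identifier, ENSMUSG00000065501.1, and is 1 of 1973 miRNA genes in the deposited count tables. It was selected on its own-strand counts in these same libraries, where earlier results had put it first of all genes, so its level and its rank are described here without a test. MicroRNA sequencing measured RNA of under 30 bases from hearts of healthy B6NCrl mouse embryos at day 11.5, pooled from males and females, with no treatment. The labels give 2 biological replicates of this single group. Replicate 1 pooled hearts of 109 embryos, the labels give no such number for replicate 2, and every cell type of the heart is mixed in each pool. The counts on each gene's own strand came to 18467499 for replicate 1 and to 2017294 for replicate 2, which makes the first library 9.15-fold deeper.

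A miRNA is cut from a hairpin precursor, and either strand of the hairpin stem, called the 5p or the 3p arm, can be loaded into an Argonaute protein. The loaded RNA then pairs with messenger RNAs, mainly through its seed at bases 2 to 8, and lowers their translation or stability. Mest encodes a protein of the alpha/beta hydrolase fold family, is transcribed from the paternal allele and is abundant in embryonic mesoderm, from which the heart arises. A miRNA in an intron can be carried by the primary transcript of its host gene.

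The sequences below show the hairpin, its 2 arms and the seeds by which the miRNA would recognise targets. They were taken from RefSeq on GRCm38.p6 and are written 5′ to 3′. In the hairpin the capitals mark the 5p arm, which comes first, and the 3p arm. In the separate arms the capitals mark the seed.
Mir335 hairpin: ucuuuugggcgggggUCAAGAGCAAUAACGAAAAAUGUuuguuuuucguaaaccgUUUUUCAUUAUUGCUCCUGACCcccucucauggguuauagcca
mmu-miR-335-5p: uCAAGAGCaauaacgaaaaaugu
mmu-miR-335-3p: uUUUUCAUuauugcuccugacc

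Neither seed recurred in any other of the mature mouse miRNAs of the RefSeq table, which has 1738 entries. With the match shortened to bases 2 to 7, each arm had 1 relative, shown here with those bases in capitals.
mmu-miR-7646-5p: aCAAGAGaacugaucagugcug
mmu-miR-6986-3p: gUUUUCAccuuccucccag
Of these relatives, Mir6986 was nearly silent, with 13 counts in the first library and 2 in the second. Mir7646 was not analysed here.

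Whether a read can be placed on Mir335 alone bears on its count, because reads that fit several places stand in a separate row of the tables. None of the 81 runs of 18 bases in the Mir335 hairpin occurred in any of 1004 other hairpins of the RefSeq table. Among 141767 annotated GENCODE M21 transcripts, both arms matched Mir335 itself and no other gene on the sense strand, and 0 genes on the antisense strand. Matches elsewhere in the genome were not searched. The arms are poor in G and C, at 30.4% for the 5p arm and 36.4% for the 3p arm, against a median of 50% over 663 mature sequences from 372 of the 419 detected genes. Of those 663 sequences, 11 had a lower share than the 5p arm and 48 a lower share than the 3p arm. The 98-base hairpin folded in silico at -44.3 kcal/mol, with 18 base pairs between the 2 arms. Per base this was -0.45 kcal/mol, close to the median of -0.43 over 354 hairpins of detected genes. The count tables give 1 number per hairpin, so how the reads divide between the 5p and 3p arms cannot be read from them.

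On GRCm38 (the build also called mm10), Mir335 lies on chromosome 6 from 30741299 to 30741396, on the plus strand. Mest occupies 30723547 to 30748465 on the same strand. Of its 11 annotated transcripts 7 span Mir335, and in each of the 7 it lies in the same 1316-base intron, 474 bases after the exon before it and 744 bases ahead of the next exon. No annotated exon of Mest or of another gene on that strand overlapped the hairpin. That intron is number 3 of Mest-202, a transcript of 13 exons whose start lies 3246 bases before Mir335. It is number 2 of Mest-201, whose start lies 17752 bases before it. Transcripts from the different Mest start sites thus share the intron, as the map of the locus shows. The level of Mest RNA was not measured in these libraries, which hold small RNA alone.

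**Figure D1:**
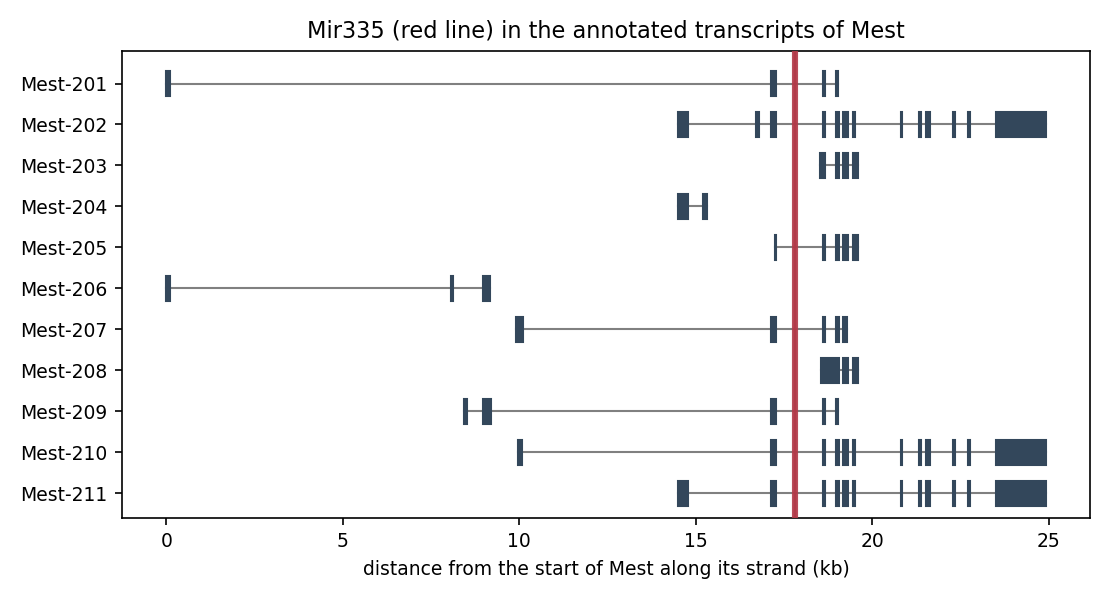
Annotated GENCODE M21 transcripts of Mest, with exons as boxes, introns as lines and the position of Mir335 as a red line wider than scale, against distance in kb from the start of Mest. The red line crosses an intron in each of the 7 transcripts that span it and crosses no exon.

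Mir335 held 11.2% ± 0.53 of the own-strand miRNA counts (SD, n = 2). In replicate 1 it had 2135052 counts, or 11.6% of the total, with an exact 95% Clopper-Pearson interval of 11.55 to 11.58%. In replicate 2 it had 218023 counts, or 10.8%, with an interval of 10.76 to 10.85%. Such intervals reflect counting error alone and not variation between libraries. Without molecular identifiers several reads can stem from 1 molecule, so the intervals may be too narrow even for that error. The libraries lay further apart than either interval is wide. Scaled to 1000000 counts per library (CPM), the level was 115611 in replicate 1 and 108077 in replicate 2. About 1 in 8.65 counts came from this gene in replicate 1 and 1 in 9.25 in replicate 2.

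Reads at the locus lay almost wholly on the strand of Mir335 and Mest. The opposite strand had 32 reads in replicate 1 and 2 in replicate 2, or 0.00150% (exact interval 0.00103 to 0.00212%) and 0.000917% (0.000111 to 0.00331%) of the reads there. Of the 419 detected genes, meaning those of at least 1 CPM in each library, 352 had no opposite-strand read at all. The median share over detected genes was 0%, and 360 of the 419 had a lower mean share than Mir335. The share at Mir335 was thus very small but above that of most detected genes. At a share this small, a gene of few counts would mostly show no such read. Of the genes next to it in counts, Mir143 had 1 and 0 such reads in replicates 1 and 2. Mir322 had 4 and 0, Mir99a 0 and 0, and Mir126a 81 and 8.

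Mir335 had more counts than any other gene in both libraries, and the gene after it in each was Mir143, a miRNA known from smooth muscle. Mir143 stood at 92563 and 97313 CPM in replicates 1 and 2, so the ranges of the pair did not overlap. Within a library, where the total plays no part, Mir335 exceeded Mir143 1.25-fold in replicate 1 (exact binomial interval 1.246 to 1.252) and 1.11-fold in replicate 2 (1.104 to 1.117). The lead was thus smaller in replicate 2. Scaled to the own-strand totals, Mir335 was lower there and Mir143 higher.

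The endothelial Mir126a came next at 79505 and 84700 CPM in replicates 1 and 2, followed by Mir322 at 78755 and 81863 CPM. The ranges of these 2 neighbours overlapped, so their order is not set by these libraries. Mir335 exceeded Mir126a 1.45-fold and 1.28-fold, and Mir322 1.47-fold and 1.32-fold, in replicates 1 and 2. Mir99a followed at 55497 and 52645 CPM, 2.08-fold and 2.05-fold below Mir335. The cardiac Mir208b, encoded in an intron of the myosin gene Myh7, stood at 46467 and 50211 CPM. After Mir208b came a step down to Mir30e, Mir26b, Mir99b, Mir130a and Mir21a, whose means lay between 24974 and 21772 CPM, and each overlapped its neighbour in the order. Mir335 lay 4.48-fold above the first of these genes and 5.14-fold above the last, by the mean of the log2 ratios. The order covers own-strand counts alone. The strand opposite Gm25301, where Mir378a lies, had 509192 and 54998 reads, more than Mir30e with 446562 and 51978. The plot of the 11 leading genes shows both steps, and these ratios compare counts, which also depend on how well each sequence is read.

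**Figure D2:**
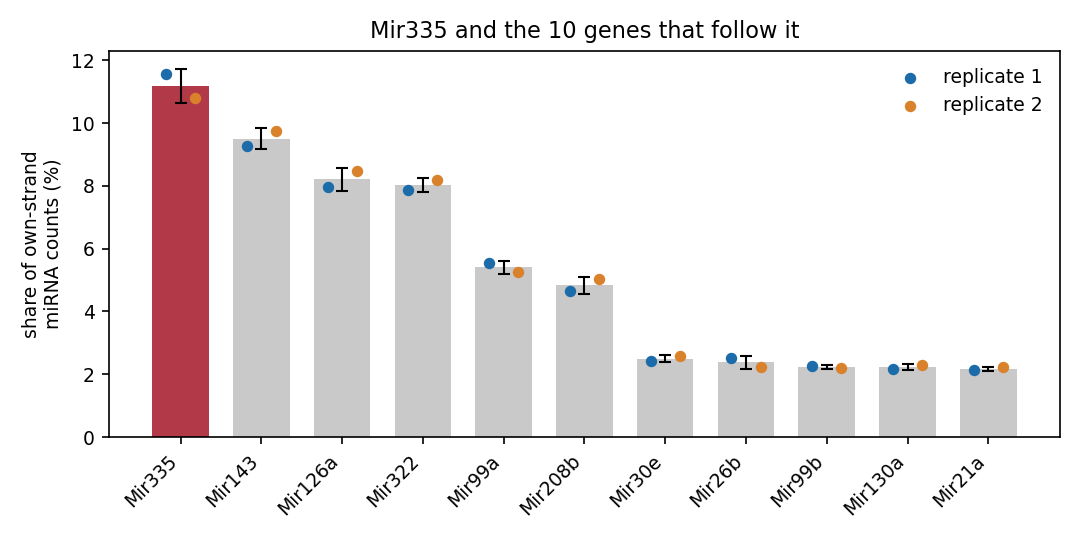
Share of own-strand miRNA counts in % for Mir335 (red) and the 10 genes that follow it in mean CPM (grey); bars are means, error bars SD over 2 libraries, and points the libraries. Both points of Mir335, at 11.6% and 10.8%, lie above both points of every other gene.

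The rank holds among the reads that were assigned to a gene. Reads that mapped to several places were counted on no gene, and numbered 12025096 in replicate 1 and 1174235 in replicate 2, which is 5.63 and 5.39 times the Mir335 count. A gene with reads among them could stand higher than its count shows. Mir143, for example, would equal Mir335 if 3.54% of those reads in replicate 1, or 1.85% in replicate 2, were its own, and Mir30e would need 14.0% and 14.1%. A gene left with few counts, such as Mir199a-1 with 49 and 6, would need about 17.8% and 18.6%. Which genes the multimapping reads came from was not tested. As a share of all mapped reads, those on no gene included, Mir335 took 6.005% in replicate 1 and 6.168% in replicate 2. On that base replicate 2 was the higher library, the reverse of the order among own-strand miRNA counts. As a share of every read, unmapped ones too, it took 3.70% and 4.47%, and unmapped reads were 38.4% and 27.5% of the libraries.

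Among miRNA genes inside introns, Mir335 took a large share alone. Of the 1973 genes, 720 lie in an intron of a gene on the same strand, 647 of them in a protein-coding host, and 180 of the 720 were detected. Together the 720 held 44.0% ± 0.72 of the counts (SD, n = 2). Mir335 made up 26.0% of these intronic counts in replicate 1 and 24.9% in replicate 2. After it in protein-coding hosts came Mir208b in Myh7, Mir30e in Nfyc, Mir26b in Ctdsp1, a gene of a small phosphatase, and Mir99b in Spaca6, of which Mir30e and Mir99b share their host with 1 other counted miRNA gene. Mir335 and Mir208b are each the only counted miRNA gene of their host. Mir335 exceeded Mir208b 2.49-fold in replicate 1 and 2.15-fold in replicate 2.

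The other counted miRNA genes within 1 Mb of Mir335 numbered 6, all outside Mest, and 5 of them were detected. Toward the start of the chromosome, 572 to 575 kb away and on the other strand, lies the cluster of Mir183, Mir96 and Mir182, known from sensory organs. Mir183 stood at 403 and 241 CPM in replicates 1 and 2, Mir182 at 277 and 201 CPM, and Mir96 at 132 and 81.3 CPM. On the other side, 321 kb away, Mir29a, of a family known to repress collagen and other matrix genes, stood at 490 and 534 CPM. Its neighbour Mir29b-1 stood at 3.14 and 3.47 CPM. Gm23049 had 0 counts in both libraries, which allows up to 0.162 CPM in replicate 1 and 1.49 CPM in replicate 2. Mir335 stood 218-fold above Mir29a, the highest of these neighbours in mean CPM. In counts assigned to a gene, the abundance of Mir335 was therefore not shared by the miRNA genes around it. By its name Mir29b-1 is a copy of a miRNA with several genes. Reads that fit several places were counted on no gene, so its level may be understated. Of the counts on all 80 counted miRNA genes of chromosome 6, Mir335 held 97.4% in replicate 1 and 97.5% in replicate 2.

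Imprinted genes are expressed from the allele of one parent, and several imprinted loci carry miRNAs. These reads do not tell the alleles apart, so imprinting itself was not measured. The list of imprinted loci held 123 counted genes. It took in Mest, the Igf2-H19 locus with Mir483 and Mir675, the Gnas locus with Mir296 and Mir298, the Dlk1-Dio3 domain with 59 genes and the Sfmbt2 repeat cluster with 59 genes. Mir335 alone held 58.6% of the counts of the list in replicate 1 and 57.2% in replicate 2. It exceeded the sum of the 122 other genes 1.41-fold in replicate 1 (exact binomial interval 1.410 to 1.416) and 1.34-fold in replicate 2 (1.327 to 1.344).

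The Dlk1-Dio3 domain, with 47 of its 59 genes detected, held 5.80% of all miRNA counts in replicate 1 and 5.76% in replicate 2, so Mir335 stood 1.99-fold and 1.88-fold above the whole domain. The leading gene of the domain was Mir411 at 9396 and 9937 CPM, 12.3-fold and 10.9-fold below Mir335. It was followed by Mir487b at 8004 and 7415 CPM and Mir431 at 5988 and 5969 CPM. The domain also had 203737 and 21017 reads on the strand opposite to its counted genes, which these shares leave out. In the same libraries the Gnas locus held 1.18% and 1.13%, with Mir298 at 6489 and 6417 CPM and Mir296 at 5302 and 4902 CPM. The Igf2-H19 locus held 0.807% and 0.810%. Most of that was Mir483, in an intron of the growth factor gene Igf2, at 7823 and 7867 CPM, whereas Mir675, in an exon of H19, stood at 247 and 235 CPM. The Sfmbt2 cluster held 0.399% and 0.391%, led by Mir467d at 1489 and 1511 CPM. Some single genes of these loci varied between the libraries about as much as Mir335, whose ratio of replicate 2 to replicate 1 was 0.935. That ratio was 0.925 for Mir296, 0.926 for Mir487b and 1.06 for Mir411. Others varied less, such as Mir483 at 1.006, Mir298 at 0.989 and Mir431 at 0.997. The plot of imprinted loci shows the shares side by side. The repeat members of Sfmbt2 resemble each other in sequence, so their counts are uncertain.

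**Figure D3:**
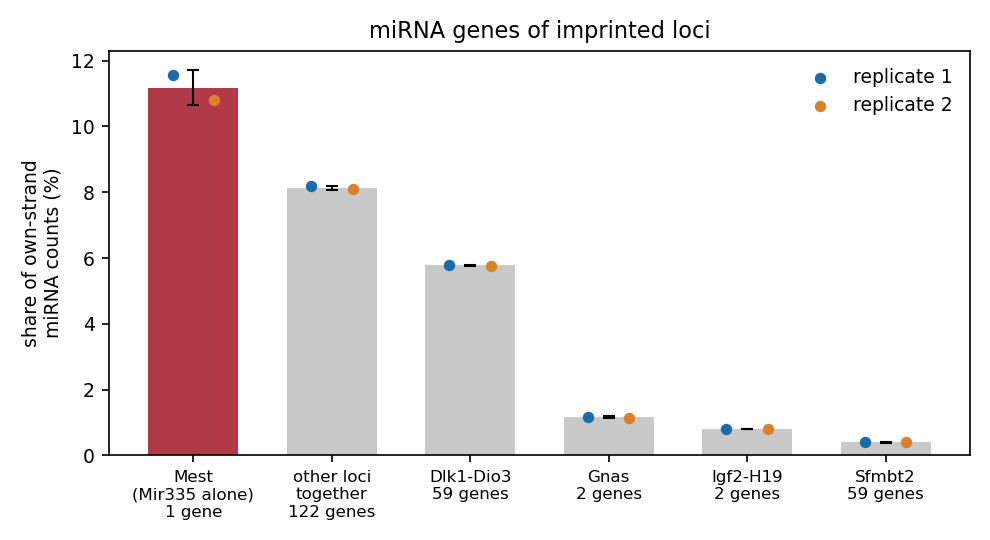
Share of own-strand miRNA counts in % for the miRNA genes of each imprinted locus and for all listed loci but Mest together; bars are means, error bars SD over 2 libraries, and points the libraries. The single gene at Mest, in red, stands above the 122 genes of the other loci combined, which hold 8.18% and 8.09%.

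The sequences of the leading miRNAs of Dlk1-Dio3 and Igf2-H19 are shown to set their seeds, in capitals, beside those of miR-335.
mmu-miR-411-5p: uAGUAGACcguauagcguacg
mmu-miR-411-3p: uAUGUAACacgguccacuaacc
mmu-miR-483-5p: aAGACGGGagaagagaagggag
mmu-miR-483-3p: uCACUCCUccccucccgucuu
None of these seeds equals a seed of miR-335.

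The 2 libraries were compared gene by gene to see how far the Mir335 level varies within the group. For Mir335 the 115611 and 108077 CPM of replicates 1 and 2 give a ratio of 0.935, with exact bounds of 0.931 and 0.939, or a log2 ratio of -0.10. By an exact binomial test with Benjamini-Hochberg adjustment over the 419 detected genes it was lower in replicate 2 (adjusted p = 1.18e-198). The test allows for counting error alone and compares these libraries, not conditions. The direction depends on the total: with all mapped reads as the total the log2 ratio was 0.039, and with all reads 0.27. It called 29.4% of the detected genes, 15% as lower and 14.3% as higher in replicate 2, and 100% of the 21 genes of at least 10000 mean CPM. With a fold of at least 2 as well it called 2.63%, and Mir335 was not among them, so passing the test does not set Mir335 apart. The edgeR exact test at the common dispersion called 0.955% of the genes and not Mir335 (adjusted p = 1). Its dispersion was estimated from the difference between these same libraries, so that p says nothing of whether Mir335 differs.

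The difference was smaller than that of most detected genes, but not than that of most abundant genes. The absolute fold was 1.07 for Mir335, against a median of 1.10 over the 419 genes, of which 268 differed by more. Among the 21 genes of at least 10000 CPM the median fold was 1.065, against 1.070 for Mir335. The largest was 1.18, for Mirlet7i, and 7 differed by more than Mir335. The plot of library differences shows Mir335 at the abundant end, a little below the line of equality.

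**Figure D4:**
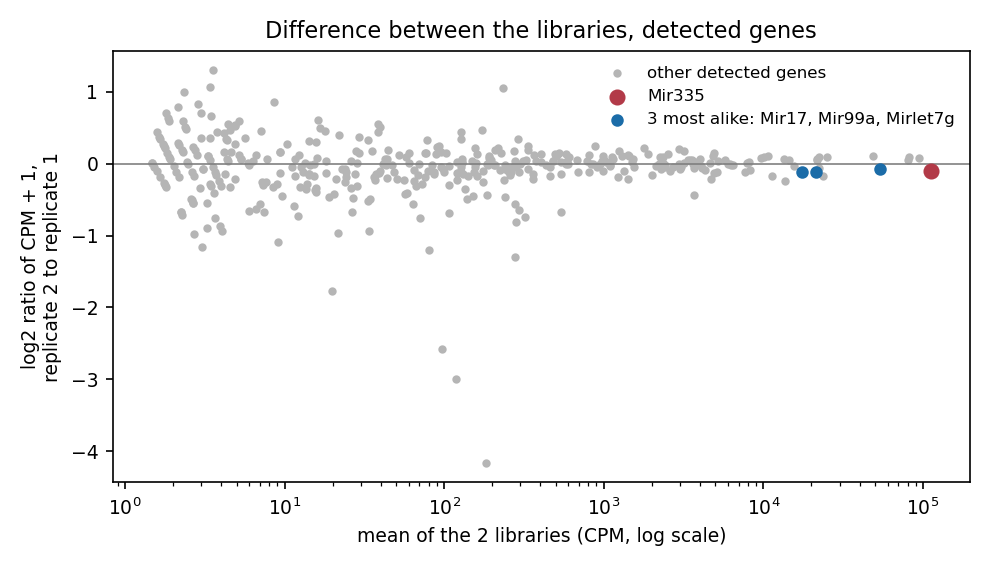
Log2 ratio of CPM + 1 in replicate 2 to replicate 1 against mean CPM (log axis) for the 419 detected genes, with Mir335 in red and the 3 abundant genes of closest ratio in blue. Mir335, at -0.10, lies in the narrow band of the abundant genes, while genes of low CPM scatter widely.

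Marker lists of cell types differed between the libraries too, and their part in the Mir335 ratio was not tested. The cardiac list, with 5 of 7 markers detected, held 5.84% in replicate 1 and 6.31% in replicate 2, of which Mir1a-1 had 55 and 3 counts. The mature sequence of Mir1a-1 also occurs at Mir1a-2, which was not analysed here, so the list does not measure miR-1. The smooth muscle list (2 of 2 detected) held 9.37% and 9.86%, and endothelial Mir126a 7.95% and 8.47%. As shares of own-strand miRNA counts, these 3 were higher in replicate 2 and Mir335 was lower. The mesenchyme list (4 of 4) held 0.548% and 0.506%, the epithelial list (7 of 7) 0.214% and 0.149%, the red cell list (3 of 3) 0.108% and 0.104%, and the white cell list (3 of 4) 0.0396% and 0.0366%. The white cell value leaves out Mir142, whose place is held by the strand opposite Mir142b, with 44629 and 4183 reads. The endocrine and gut list (4 of 4) held 0.0483% and 0.0387%, liver Mir122 0.0395% and 0.0160%, the skeletal muscle list (2 of 2) 0.00695% and 0.00550%, and the neural list (2 of 8) 0.00633% and 0.00347%. Of the neural markers Mir124a-1, Mir124a-3 and Mir9-2 had 0 counts in both libraries. By their names these are copies of miRNAs with several genes, and reads that fit several places were counted on no gene. A count of 0 therefore does not show that such a miRNA was absent. The same limit applies to the Mir133a genes of the cardiac list and the Mir199a genes of the mesenchyme list, among others. Members of the cardiac, mesenchyme, white cell, skeletal muscle, and endocrine and gut lists went both ways between the libraries. Mir208b made up most of the cardiac sum and was higher in replicate 2, whereas Mir1a-1 stood at 2.98 and 1.49 CPM. In replicates 1 and 2, Mir214 of the mesenchyme list stood at 5112 and 4684 CPM and Mir199b at 321 and 333 CPM. In pooled tissue, a change in the number of cells of a type and a change in the RNA per cell cannot be told apart.

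With 2 libraries, likeness between genes comes down to 1 number, the log2 ratio between the libraries. Among the genes of at least 10000 mean CPM, the 3 closest to Mir335 in that ratio were Mir17, a member of the Mir17hg cluster, at 0.927, Mir99a at 0.949 and Mirlet7g at 0.921. Mir17 stood at 22123 and 20501 CPM, Mir99a at 55497 and 52645 CPM and Mirlet7g at 18166 and 16727 CPM in replicates 1 and 2. All 3 lie on other chromosomes than Mir335, and 2 libraries cannot show whether genes vary together.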

How the data were processed

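Each deposited table holds the raw counts of 1 library per miRNA gene. Notes deposited with it name build mm10 and GENCODE M4, but no aligner or counter. The 3 count columns have no names. Their sums and layout fit both strands together, the gene's own strand and the opposite strand, in that order. The own-strand counts were used. Summary rows stayed out of library sizes. Symbols, coordinates (1-based) and hosts came from GENCODE M21 on GRCm38, where 1894 of 1973 identifiers matched. The 79 others held 6 counts in replicate 1 and 2 in replicate 2.

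CPM were computed from own-strand totals, and genes of at least 1 CPM in each library were called detected. Folds within a library and intervals came from SciPy 1.17.1. The libraries were compared by exact binomial test (two-sided, at the own-strand totals), with Benjamini-Hochberg adjustment at 0.05. The test was tried on simulated counts that vary by counting error alone, as it assumes. That trial does not cover further variation between real libraries. edgeR 4.0.16 (TMM factors, common dispersion from both libraries taken as 1 group) and DESeq2 1.42.0 (size factors) gave alternatives, with unstranded counts, other totals, filters and pseudocounts, and each replicate left out. RNAfold 2.7.2 predicted folds. An exact sign-flip test over 2 libraries cannot go below p = 0.5 (two-sided), and none was run.

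Named genes were Mir335, the 10 next in mean CPM, counted genes within 1 Mb, those sharing a seed, up to 4 leading genes per imprinted locus, the leading genes in introns of protein-coding hosts, the 3 abundant genes of closest library ratio, and the cell type markers. Mirlet7i, Mir6986, Gm25301 with Mir378a and Mir142b fall outside this rule and were named after their values were seen. The gene, the lists and the tests were chosen with earlier results of these data known.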

Additional observations from a re-analysis of the deposited data

Results flagged for a closer look

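Reads on the strand opposite to Mir335, which are left out of its level and rank, numbered 32 in replicate 1, above the 3 counts that a count of 0 allows. Replicate 2 had 2 such reads, which is under that limit. Replicate 1 is 9.15-fold deeper and the exact intervals of the shares overlap, so the limit shows no difference between the libraries.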

How the results depend on the processing

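Mir335 remained the gene of most counts with unstranded counts and with each replicate left out. Its share of 11.2% became 6.92% with multimapping reads added to the total and 12.6% as a percent of the other genes' counts, both by construction of the total. Its share of the imprinted list, 57.9%, was 54.8% with unstranded counts, which add the opposite-strand reads of Dlk1-Dio3, and 59.1% without the Sfmbt2 cluster. Its mean log2 ratio to Mir143, 0.24, was 0.15 without replicate 1 and 0.32 without replicate 2. The log2 ratio between the libraries stayed between -0.11 and -0.08 with TMM or DESeq2 scaling, totals without Mir335, unstranded counts and other pseudocounts. It reversed with other totals, chosen after seeing the data, to 0.039 with all mapped reads and 0.27 with all reads. The edgeR exact test left it at -0.10 with an adjusted p = 1, and called 4 genes against 123 by the exact binomial test, with a dispersion taken from the same 2 libraries. Of 35 alternative values 27 stayed within the spread or the call. For the shares and the ratio to Mir143, leaving out 1 of 2 libraries cannot move a mean beyond their SD. Pseudocounts are too small to alter a level this high. Those values stayed by construction, so the count of 27 is no measure of robustness. No paired analysis was possible because the design has 1 group. Depth was 9.15-fold lower in replicate 2, which limits genes of few counts and not Mir335.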
